A study of Mus musculus with 15 samples.

Results

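Genes of the mature neutrophil surface and of neutrophil chemotaxis were followed in leukaemic mouse spleens. The disease, acute promyelocytic leukaemia (APL), is an arrest of neutrophil development at the promyelocyte. The 9 genes were Cxcr2 (named Il8rb in the array's annotation), Fpr1, Fpr2, Retnlg, Clec4d, Clec4e, Trem1, Il1b and Ccrl2. The rule used gene symbols and no measured value, but the genes were chosen with earlier results of these data known. All probesets with 1 of these symbols as their only annotated symbol were used, which gave 53 of 229581 probesets and 9 of 16277 genes. The study held 15 Affymetrix mouse exon arrays, 1 for each of 15 numbered tumours, each a spleen with APL of the Bl/6 Taconic strain. The labels gave 1 group, no healthy spleen was analysed here, and the lesion that drives the leukaemia is not given in the sources used here. Whether each tumour is from its own mouse is not stated, and p-values therefore cover only the variation seen among these arrays. Values are log2 intensities, the median over a gene's probesets, and errors are SDs over the 15 tumours.

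Neutrophils leave the marrow and enter tissue by following chemoattractants, which they sense through receptors of the seven-transmembrane family such as Cxcr2 and the formyl peptide receptors. These receptors, together with the pattern recognition receptors of the Clec4 and Trem families, appear late in neutrophil development, after the granule proteins of the promyelocyte. Promyelocytes, the cells that accumulate in APL, come before that step. In whole spleens, fewer cells of a type and less RNA per cell cannot be told apart.

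Median deposited intensity was between 108 and 129 on the 15 arrays, and no pair of arrays held identical values. The tumor_9509 and tumor_9514 arrays were set apart, with medians of 108 each against 120 to 129 on the others, and each was the lowest of 15 in many probesets of detected genes (19.5% for tumor_9509 and 19.9% for tumor_9514). Where they turned the sign of a printed correlation or moved a count by over 1.5 times, the value or range without them is given as well. The correlations of the gene lists with Cxcr2 are given over all 15 tumours only. Genes with a mean above 6.415, the 40th percentile of all gene means, counted as detected, which gave 9766 genes. Some markers of the labelled tissue were detected. Mpo, the myeloperoxidase of promyelocytes, was between 12.42 and 13.30 in every tumour, the B cell receptor gene Cd79a averaged 8.24 ± 0.60 and the red pulp macrophage adhesion gene Vcam1 9.71 ± 0.89 (SD, n = 15 each). Of the markers measured, 5 of 7 for B cells and 6 of 10 for red pulp macrophages were detected. Among the others, Spic, Cd163 and Mertk were below the limit in all 15 tumours and Ms4a1 in 12. Of the 9 genes, 8 were detected, and Ccrl2 was not.

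The levels of the 8 detected genes varied widely between tumours. Their median SD was 0.95 log2 units, against 0.29 over the 9766 detected genes. Fpr1 had a larger SD than 99.8% of detected genes, Cxcr2 than 99.3% and Trem1, the steadiest of the 8, than 88.2%. A single tumour, tumor_9508, was the lowest of 15 in 7 of the 8 genes, and it was among the lowest 3 in all 8. On the mean over probesets in place of the median it was the lowest in 5 of the 8 genes and among the lowest 3 in 7, as Clec4d was then lowest in tumor_9492 and Il1b in tumor_9504. At the other end, tumor_31 was among the highest 3 in 7 of the 8 genes, all except Clec4e. In tumor_9508 the summed level of 7 primary granule genes of the promyelocyte was the highest of 15 (14.67 on the log2 scale, the lowest being 14.09 in tumor_9504) and that of 14 neutrophil granule and maturation genes the lowest (14.55, the highest being 15.66 in tumor_31). Mki67, a gene of cycling cells, was the highest of 15 there as well, at 10.90, with a lowest level of 9.74 in tumor_9520. It was nearly as high in tumor_36 (10.90) and tumor_9492 (10.87). Mpo, itself a primary granule gene, was 12.95 in tumor_9508, below its median of 13.01, and highest in tumor_29 at 13.30. The 3 readings of the 2 granule sums and of Mki67 were picked out after the values were seen. The genes did not share 1 highest tumour, since tumor_9500 and tumor_9514 were highest in 3 genes each and tumor_31 and tumor_9523 in 1 each. On the mean over probesets tumor_9500 was highest in 3 genes, tumor_31 in 2, and tumor_9514, tumor_9509 and tumor_9523 in 1 each. With 1 array per tumour there is no replicate spread, so neighbouring tumours in these orders cannot be told apart.

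**Figure D1:**
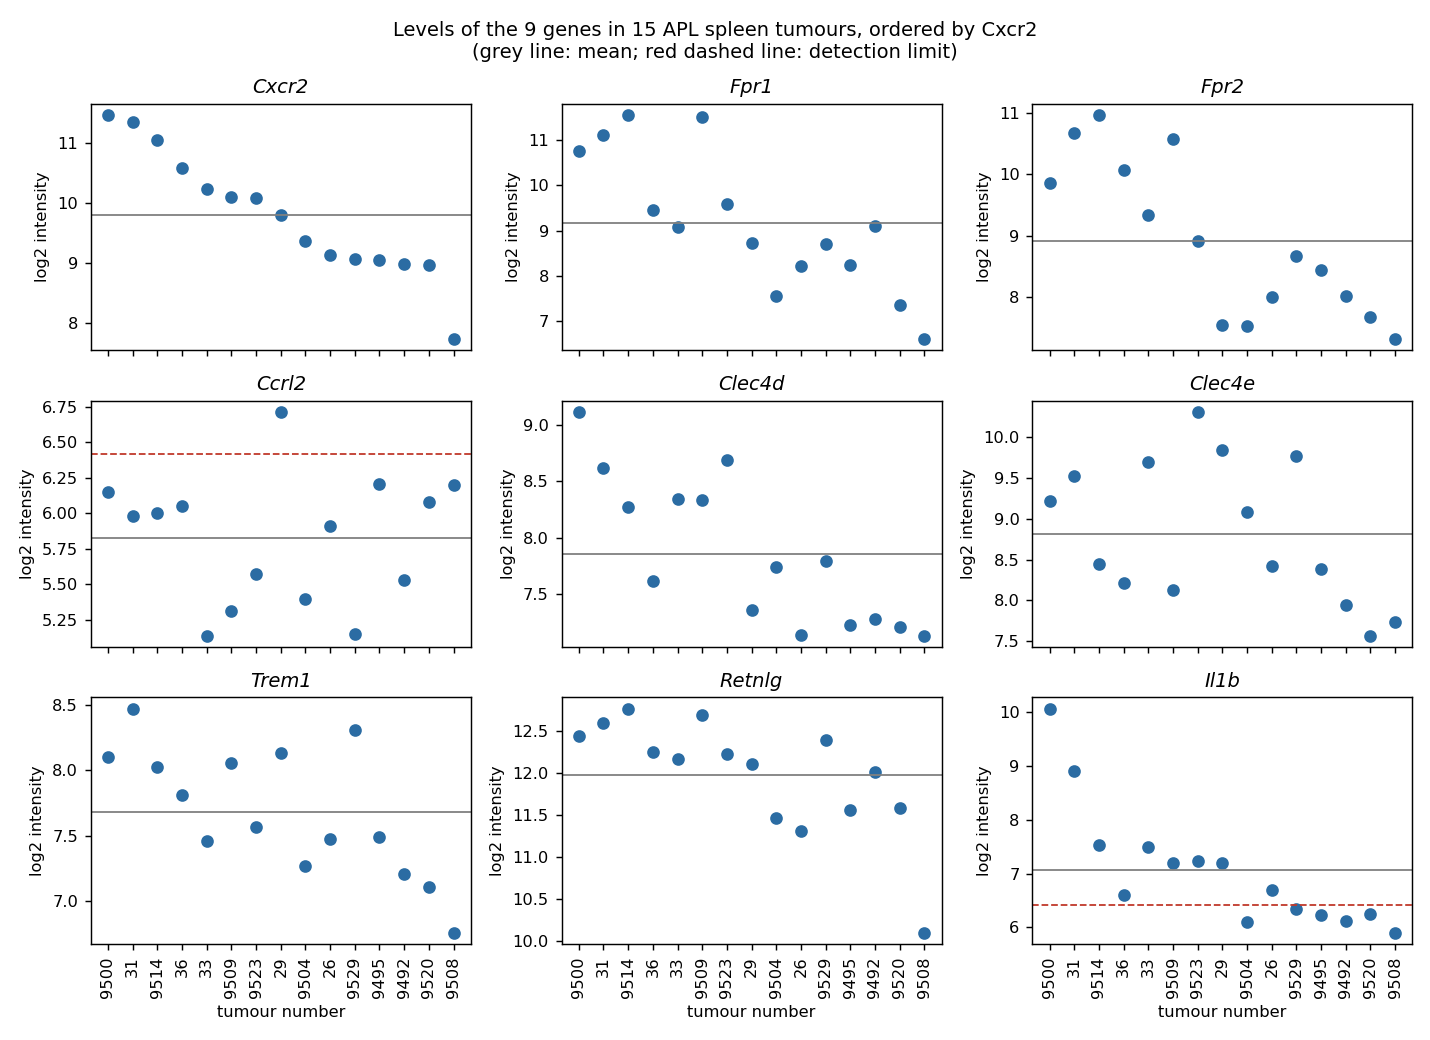
Log2 intensity (vertical axis, median over probesets) of the 9 genes in the 15 tumours (horizontal axis, ordered from the highest to the lowest Cxcr2), 1 point per tumour. The grey line is the mean and the red dashed line the detection limit of 6.415. The point for tumor_9508 is the lowest in 7 of the 8 detected genes, and 14 of 15 Ccrl2 points lie below the limit.

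Among the chemoattractant receptors, Cxcr2 binds the CXC chemokines that release neutrophils from the marrow. Its lowest level was 7.73 in tumor_9508, its median 9.80 and its highest 11.47 in tumor_9500, a 13.3-fold range, with a mean of 9.79 ± 1.04 (SD, n = 15). The upper end was made of tumor_9500, tumor_31 (11.35) and tumor_9514 (11.04), and tumor_9508 stood apart at the lower end, the next tumour being tumor_9520 at 8.96. Its 5 probesets were alike: each had r of 0.98 or 0.99 with the median of the others, and all 5 had tumor_9508 as the lowest tumour. The neighbouring gene Cxcr1, the related receptor, averaged 6.61 ± 0.46, close to the detection limit, and its r with Cxcr2 was -0.20 (permutation p = 0.478, rho = -0.29 with permutation p = 0.299).

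Fpr1 and Fpr2 bind formylated peptides released by bacteria and mitochondria, and the genes lie next to each other on chromosome 17. Fpr1, measured by 1 probeset, was 6.61 in tumor_9508, had a median of 9.07 and reached 11.56 in tumor_9514, a 30.8-fold range. Fpr2, with 4 probesets, was 7.32 in tumor_9508, had a median of 8.67 and reached 10.96 in tumor_9514, a 12.5-fold range. For both genes the upper 3 tumours were tumor_9514, tumor_9509 and tumor_31. Fpr1 and Fpr2 were the most alike pair of all 36, with r = 0.92 (permutation p = 1e-05, the smallest that 100000 resamples can give; rho = 0.90, permutation p = 1e-05). Its r was 0.96 within the 10 tumours numbered with 4 digits and 0.87 without tumor_9509 and tumor_9514. Paralogues can share probe sequence, and probe sequences were not analysed here. The related receptor gene Fpr-rs3 averaged 6.80 ± 0.22 with r = 0.01 to Fpr1 and 0.15 to Fpr2, and Fpr-rs4 was below the detection limit in all 15 tumours. Without tumor_9509 and tumor_9514 the r of Fpr-rs3 was -0.23 with Fpr1 and -0.04 with Fpr2.

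Ccrl2 encodes an atypical receptor that binds chemerin and presents it without signalling of its own. It was below the detection limit in 14 of 15 tumours, with a lowest level of 5.14 in tumor_33, a median of 5.98 and a highest of 6.71 in tumor_29. Its 7 probesets did not move as 1, since each one's correlation with the median of the others was between -0.01 and 0.83, and 3 of the 7 had a mean above the limit. Correlations of Ccrl2 with the other 8 genes were between -0.28 and 0.16. Ccrl2 lies next to Ltf, the lactoferrin gene, on chromosome 9, and its r with Ltf was 0.13 (permutation p = 0.653 over 15 tumours, rho = 0.05). When the probesets below the 25th percentile of all probesets were left out, its r with Cxcr2 was 0.43 in place of 0.04, so no relation of Ccrl2 is read from these arrays.

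Clec4d (also called MCL) and Clec4e (Mincle) are C-type lectin receptors for microbial and cell-derived glycolipids that signal through the Fc receptor gamma chain, and they lie next to each other on chromosome 6. Their upstream windows are shown because the orders of the tumours for these adjacent genes are compared next, with that of Retnlg, the only other gene of the 9 with a motif match. Each is the 250 bases before the gene start in RefSeq, build GRCm38.p6, and the capitals mark the only matches to the 4 motifs searched. Clec4d is chr6:123261857-123262106 on the plus strand, Clec4e is chr6:123289872-123290121 on the minus strand and Retnlg is chr16:48872358-48872607 on the plus strand.
Clec4d: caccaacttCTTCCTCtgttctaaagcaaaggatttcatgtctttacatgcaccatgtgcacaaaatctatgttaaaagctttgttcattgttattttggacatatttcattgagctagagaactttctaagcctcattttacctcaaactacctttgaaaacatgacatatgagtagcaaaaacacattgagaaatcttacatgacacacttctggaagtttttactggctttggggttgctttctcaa
Clec4e: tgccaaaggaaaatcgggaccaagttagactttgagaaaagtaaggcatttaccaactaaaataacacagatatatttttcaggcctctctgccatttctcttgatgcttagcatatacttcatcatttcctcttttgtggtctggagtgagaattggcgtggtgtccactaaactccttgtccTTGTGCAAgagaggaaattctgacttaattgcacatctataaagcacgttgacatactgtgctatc
Retnlg: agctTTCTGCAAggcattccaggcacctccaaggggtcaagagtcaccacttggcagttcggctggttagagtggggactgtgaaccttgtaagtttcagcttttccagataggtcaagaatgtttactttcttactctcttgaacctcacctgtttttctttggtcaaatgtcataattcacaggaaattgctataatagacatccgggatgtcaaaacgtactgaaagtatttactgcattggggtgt
The motifs were TTNNGCAA for C/EBP factors, GAGGAAG for PU.1 and other ETS factors, TGANTCA for AP-1 and a kappa-B motif for NF-kB, searched on both strands of the 11 promoters of the 9 genes. Clec4e held the C/EBP letters at -66 to -59 from its start and Retnlg at -246 to -239. Clec4d held the ETS letters on the minus strand at -241 to -235. Neither the NF-kB nor the AP-1 letters occurred in any of the 11. In all 32851 promoters of the table the shares with a match were 9.56%, 10.6%, 4.65% and 6.75% for C/EBP, ETS, NF-kB and AP-1. Such a match describes letters only.

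Clec4d was 7.13 in tumor_9508, had a median of 7.74 and reached 9.12 in tumor_9500, a 3.97-fold range. Clec4e was 7.56 in tumor_9520, had a median of 8.45 and reached 10.32 in tumor_9523, a 6.75-fold range. Both were low in tumor_9508 and tumor_9520, but they were ordered differently at the top. Clec4d was highest in tumor_9500, tumor_9523 and tumor_31, whereas Clec4e was highest in tumor_9523, tumor_29 (9.84) and tumor_9529 (9.77). The correlation between them was 0.56 (permutation p = 0.0319, rho = 0.63), and the limma adjusted p was 0.350.

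The Clec4d value depended on how its 9 probesets were combined. In tumor_9492, 7 of the 9 Clec4d probesets had their lowest value of the 15 tumours, against 4 of 7 Ccrl2 probesets, 1 of 6 Trem1 probesets, 0 of 8 Clec4e probesets and 3.84% of all probesets of detected genes in that tumour. Its brightest Clec4d probesets read 8.25 and 8.52 there, against means of 10.42 and 10.42 over all tumours. The median over probesets gave 7.27 for tumor_9492, between other tumours, while the mean over probesets gave 6.33, the lowest of 15. On the mean, tumor_9508 had 7.72 and was no longer the lowest, and the range was 7.13-fold in place of 3.97-fold. One probeset of the 9 had r = 0.21 with the median of the others and ranged over 1.30 log2 units. The low values in tumor_9492 were picked out after the values were seen, and their cause was not tested.

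**Figure D2:**
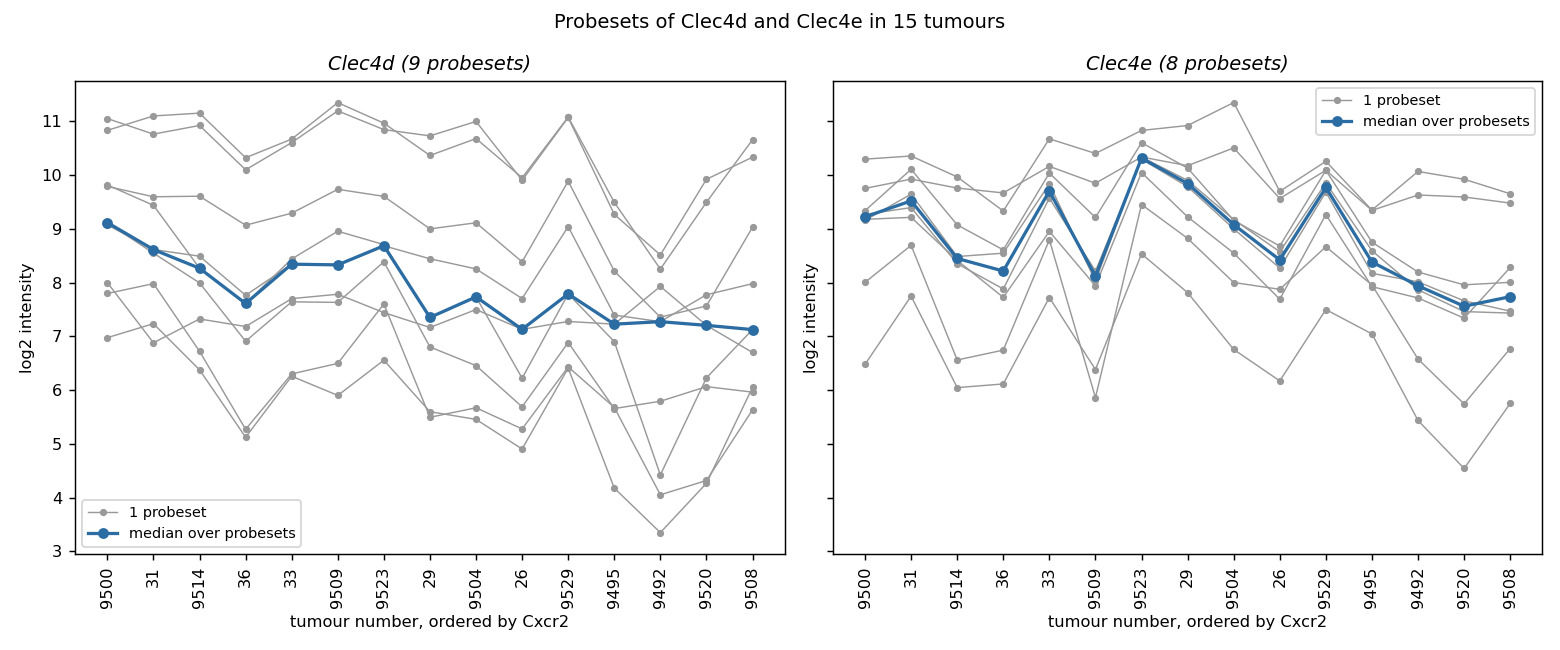
Log2 intensity (vertical axis) of each probeset of Clec4d (left) and Clec4e (right) in the 15 tumours (horizontal axis, ordered from the highest to the lowest Cxcr2). Grey lines are single probesets and the blue line is their median. In tumor_9492, 7 of 9 Clec4d probesets are at their lowest, while no Clec4e probeset is.

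The Clec4e probesets were more alike, each with r between 0.70 and 0.96 to the median of the others, and 6 of 8 were highest in tumor_9523. Clec4a2, an inhibitory receptor, averaged 9.87 ± 0.81 and had r = 0.41 with Clec4d (permutation p = 0.130) and -0.06 with Clec4e (permutation p = 0.838). Without tumor_9509 and tumor_9514 the r of Clec4a2 with Clec4e was 0.14. Clec4n (dectin-2) averaged 6.31 ± 0.69, below the limit in 8 of 15 tumours, with r = 0.54 to Clec4d (permutation p = 0.0386) and 0.37 to Clec4e (permutation p = 0.178). With the 2 tumours most distant from the Clec4d median left out, the r of Clec4n with Clec4d was 0.42 and that of Clec4a2 with Clec4d 0.70. Without the 2 tumours most distant from the Clec4e median, the r with Clec4e was 0.12 for Clec4n and 0.12 for Clec4a2. These p-values belong to 26 relations between a gene and its family or genomic neighbours. Adjusted over the 26 relations, the Clec4n value with Clec4d was 0.200.

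Trem1, a receptor that amplifies inflammatory signals through the adaptor Tyrobp, was 6.76 in tumor_9508, had a median of 7.57 and reached 8.47 in tumor_31, a 3.27-fold range. The upper tumours included tumor_9529 (8.31) and tumor_29 (8.13), which were high in Clec4e as well. Its 6 probesets correlated with the median of the others with r between 0.36 and 0.75, and 4 of the 6 were lowest in tumor_9508. The adjacent gene Trem3 averaged 11.22 ± 0.27, with r = 0.41 to Trem1 (permutation p = 0.129). The family member Treml4 averaged 6.67 ± 0.43 and was below the limit in 4 of 15 tumours, with r = 0.71 to Trem1 (permutation p = 0.00305, adjusted over the 26 relations 0.0264) and 0.58 without tumor_31 and tumor_9508. Its other neighbour, A530064D06Rik, had r = 0.71 with Trem1 (permutation p = 0.0022, adjusted over the 26 relations 0.0264), and 0.48 without the 2 tumours farthest from the median.

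Retnlg encodes a secreted resistin-like protein made by mouse granulocytes, and Il1b the inflammatory cytokine interleukin 1 beta. Retnlg was 10.10 in tumor_9508, had a median of 12.16 and reached 12.76 in tumor_9514, a 6.36-fold range. On the mean over probesets the range was 10.98-fold, with tumor_9509 the highest. The low level in tumor_9508 stood apart, and the next tumour, tumor_26, had 11.30. All 5 Retnlg probesets were lowest in tumor_9508. Its neighbour and paralogue Retnla averaged 6.65 ± 1.72 and was below the limit in 9 of 15 tumours, with r = 0.37 to Retnlg (permutation p = 0.181).

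Il1b was below the detection limit in 6 of 15 tumours, with a lowest level of 5.90 in tumor_9508 and a median of 6.70, so no fold range is given. It reached 10.07 in tumor_9500 and 8.91 in tumor_31, and no other tumour exceeded 7.53. All 8 Il1b probesets were highest in tumor_9500. Il1a, the adjacent gene of the related cytokine, was below the limit in all 15 tumours. Il1rn, the receptor antagonist, had r = 0.83 with Il1b (permutation p = 0.00097, adjusted over the 26 relations 0.0252), but 0.39 without tumor_9500 and tumor_31, so that relation rested on those 2 tumours. The relation of Il1b with Cxcr2 did not: r was 0.85 over 15 tumours and 0.82 over the other 13.

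To ask whether the genes rose and fell together, every detected gene was fitted on the level of each of the 9 genes in turn with limma, with Benjamini-Hochberg adjustment over all 87886 fits. A pair was called when both orders passed an adjusted p of 0.05. Because the 9 genes were chosen with earlier results of these data known, the shares beside the counts are a description. Of the 28 pairs of detected genes, 9 were called, all positive, against 0.149% of all gene fits called positive. They were Cxcr2 with Fpr1, Fpr2, Retnlg, Clec4d and Il1b, Fpr1 with Fpr2 and with Retnlg, Retnlg with Trem1, and Clec4d with Il1b. The share of 0.149% counts single fits in 1 order, those on Ccrl2 among them, whereas a pair had to pass in both orders. Adjusted p in the weaker order was between 0.00111 for Fpr1 with Fpr2 and 0.0430 for Retnlg with Trem1. The count depended on single tumours: 3 pairs were called without tumor_31 or without tumor_9508, 4 without tumor_9514 and 5 without tumor_9495 or without tumor_9520. Within the 10 tumours with a 4-digit number 1 pair was called, and the r of Cxcr2 with Fpr1 was 0.86 there and 0.85 over all 15.

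Pearson's r over all 36 pairs averaged 0.49 and ranged from -0.28 to 0.92. Clec4e and Ccrl2 made up the low end. The 21 pairs among the other 7 genes had a mean r of 0.75, from 0.57 to 0.92. Clec4e had a mean r of 0.39 with those 7 genes, from 0.13 with Fpr2 to 0.56 with Clec4d, and Ccrl2 a mean of -0.08. This split was made after the values were seen. Within it, Cxcr2 had the highest mean r with the others (0.81), followed by Fpr1 (0.81), Fpr2 (0.76), Retnlg (0.75), Clec4d (0.73), Il1b (0.70) and Trem1 (0.70).

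The difference between Clec4d and Clec4e was tested directly, with a test also chosen after the values were seen. The slope of Clec4d minus that of Clec4e was 0.17 log2 units per log2 unit of Cxcr2 (permutation p = 0.398 over 15 tumours), 0.19 per unit of Fpr1 (permutation p = 0.149), 0.29 per unit of Fpr2 (permutation p = 0.0668) and 0.15 per unit of Il1b (permutation p = 0.411). None of the 4 passed 0.05, the smallest adjusted over the 4 being 0.267, so the data do not show that the lectin genes differ in how they follow these genes. Without tumor_9509 and tumor_9514 the r of Clec4e was 0.53 with Cxcr2, 0.53 with Fpr1 and 0.36 with Fpr2, against 0.41, 0.24 and 0.13 over all tumours. Both those tumours were high in Fpr1 and Fpr2 and below the mean in Clec4e.

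**Figure D3:**
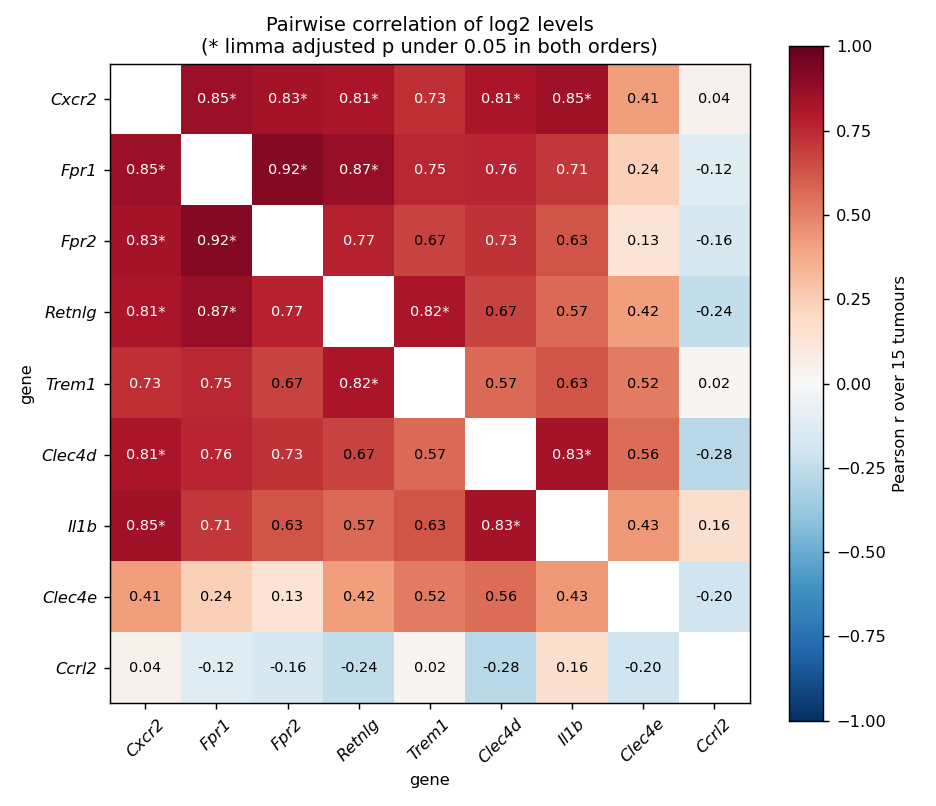
Pearson r between the log2 levels of each pair of the 9 genes over 15 tumours, printed in each cell and coloured from -1 (blue) to 1 (red). Asterisks mark the 9 pairs with a limma adjusted p under 0.05 in both orders. The rows of Clec4e and Ccrl2 are the palest.

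Cxcr2 was then taken as the measure of the mature neutrophil end, and all other detected genes were fitted on it. The same limit from the choice of genes holds here. Of the 7 other detected genes of the group, 5 rose with Cxcr2, against 0.317% of 9765 genes. They were Fpr1 (1.25 ± 0.19 log2 units per unit of Cxcr2, SE, n = 15, limma adjusted p = 0.00813), Fpr2 (1.01 ± 0.17, limma adjusted p = 0.0133), Il1b (0.93 ± 0.15, limma adjusted p = 0.0102), Retnlg (0.54 ± 0.10, limma adjusted p = 0.0236) and Clec4d (0.52 ± 0.09, limma adjusted p = 0.0236). Trem1 had r = 0.73 with an adjusted p of 0.128, and Clec4e r = 0.41 with an adjusted p of 0.676. The 7 genes had a median r of 0.81 with Cxcr2, against -0.05 over all genes tested. When each tumour was left out in turn, Fpr1 was called in 15 of 15 fits, Fpr2 and Il1b in 14, Retnlg in 12 and Clec4d in 11. Without tumor_31 only Fpr1 was called, and without tumor_9520 or tumor_9508 the count was 3. On the mean over probesets Clec4d was no longer called. Among the 10 tumours numbered with 4 digits none was, although r there was 0.86 for Fpr1, 0.83 for Fpr2, 0.87 for Il1b, 0.80 for Retnlg and 0.89 for Clec4d. The 5 tumours with a 2-digit number are too few for a value of their own.

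Ltf, lactoferrin, and Mmp9, gelatinase B, stand for the secondary and tertiary granules that neutrophils fill as they mature. With Ltf, 4 of the 8 genes rose, against 0.338% of genes: Retnlg (r = 0.86, limma adjusted p = 0.00620), Fpr1 (r = 0.82, limma adjusted p = 0.0145), Trem1 (r = 0.83, limma adjusted p = 0.0198) and Cxcr2 (r = 0.77, limma adjusted p = 0.0470). With Mmp9, 4 of the 8 rose, against 0.389% of genes: Fpr1 (r = 0.85, limma adjusted p = 0.00629), Il1b (r = 0.78, limma adjusted p = 0.0331), Cxcr2 (r = 0.77, limma adjusted p = 0.0414) and Fpr2 (r = 0.76, limma adjusted p = 0.0430). Clec4e was not called in either, with r = 0.30 and 0.21. In the 10 tumours numbered with 4 digits, r with Ltf was 0.90 for Retnlg, 0.86 for Fpr1, 0.77 for Trem1 and 0.76 for Cxcr2, of which Retnlg was called, and no gene of the 8 was called with Mmp9. Cxcr2 was the least stable of the 4 with Ltf, called in 5 of 15 fits that left out 1 tumour, and Retnlg the most, called in 14. Without tumor_9508 none of the 8 was called with Ltf, 1 was without tumor_31 and 2 without tumor_9500. With Mmp9, Fpr1 was called in 15 of 15 such fits and Fpr2 in 4, and the count was 1 without tumor_31, tumor_9495, tumor_9500, tumor_9520 or tumor_9508 and 2 without tumor_9523 or tumor_26.

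**Figure D4:**
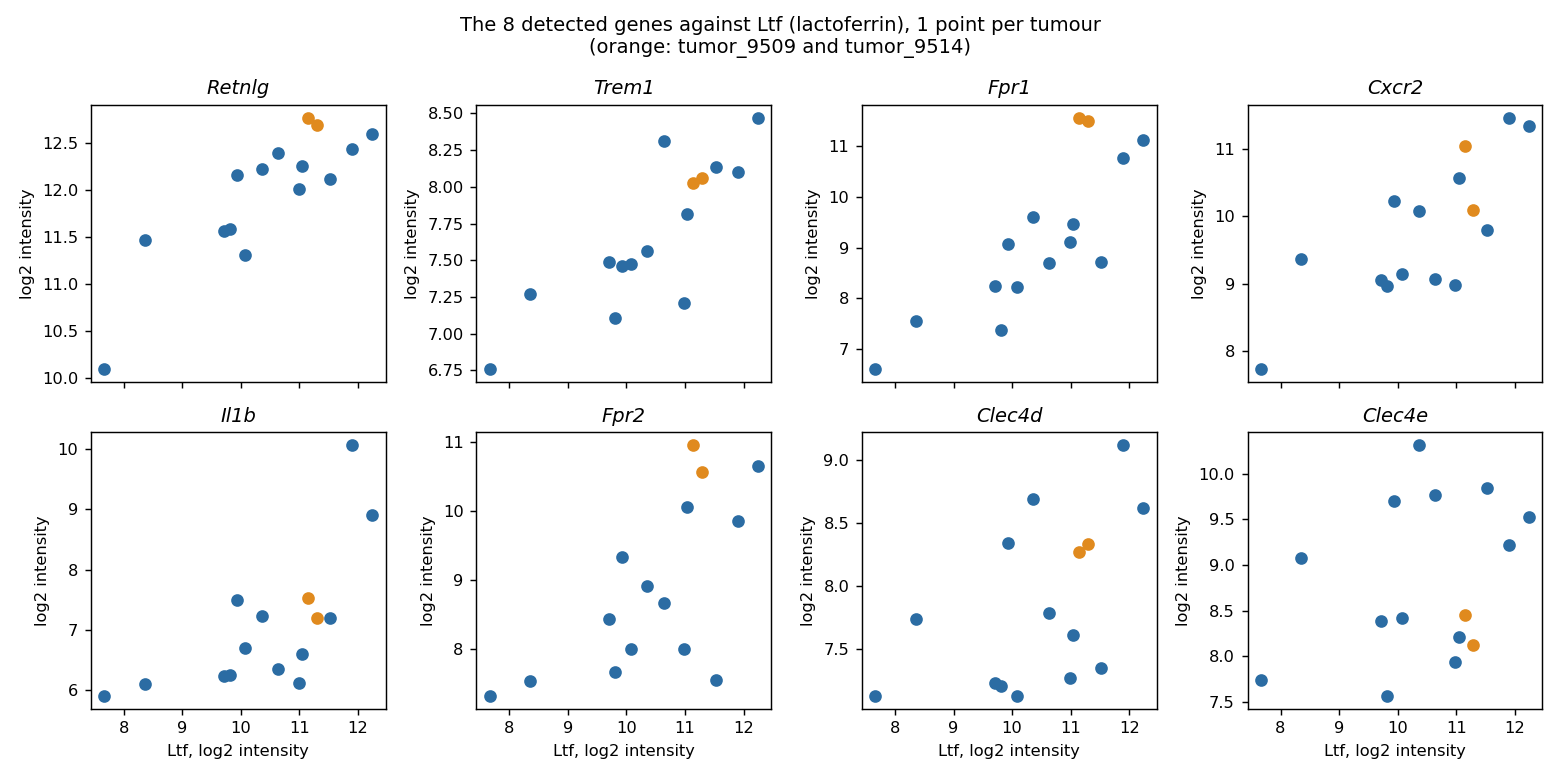
Log2 intensity of the 8 detected genes (vertical axes) against that of Ltf (horizontal axis), 1 point per tumour, with tumor_9509 and tumor_9514 in orange. Retnlg, Trem1, Fpr1 and Cxcr2, in the upper row, had r between 0.77 and 0.86, while Clec4e had r = 0.30.

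None of the 8 genes was called with markers of other compartments, and several of these correlations turned sign when 2 tumours were left out, so no direction is read from them. With Csf1r, the receptor of monocytes and macrophages, r was between -0.37 and -0.01 for the 8 genes. In that fit 0.0% of genes were called higher by limma. At an unadjusted p under 0.05, 674 of 9765 were higher and 163 lower, and 0 of the 8 genes passed in either direction. Without tumor_9509 and tumor_9514 the r with Csf1r was between -0.20 and 0.09, and for Fpr1 it was -0.18 in place of -0.37. With Mpo r was between -0.41 and 0.15. At an unadjusted p under 0.05, 0 of 8 genes passed in either direction, against 2582 of 9765 higher and 248 lower over all genes. By limma adjusted p, 0 of the 8 were called and 11.5% of all genes were called higher. No result is read from the 0 of 8. Without tumor_9509 and tumor_9514 the r with Mpo was between -0.17 and 0.26, and its sign had turned for 6 of the 8 genes, among them Fpr1 (0.19 in place of -0.33), Fpr2 (0.01 in place of -0.41) and Retnlg (0.13 in place of -0.22). The Mpo count over both directions was 1161 over all tumours, against 2 without the 2 arrays that stood apart, 0 without tumor_9514 and 95 without tumor_9509, and 2163 without tumor_9504. With Mki67 r was between -0.16 and 0.13, with 0.0% of genes called higher. For Mki67 134 genes were higher and 117 lower at an unadjusted p under 0.05. Without tumor_9520 and tumor_9504, the tumours farthest from the Mki67 median, all 8 values were negative, between -0.64 and -0.28. With Fos, an immediate early gene, r was between 0.05 and 0.41, with 0.0% called higher. For Fos 93 genes were higher and 388 lower at an unadjusted p under 0.05. The positive values rested on tumor_9508 and tumor_9492, since without them all 8 were negative, between -0.48 and -0.30, and Spearman's rho over all 15 tumours was between -0.19 and 0.08. In both fits, 0 of the 8 genes were at that unadjusted level. A p that misses the threshold at 15 tumours does not show that the genes are unrelated.

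The wider pathways were followed through 13 gene lists, of which 107 listed entries were tested against Cxcr2. These lists were drawn up with earlier results of these data known. In all 8 entries rose and 0 fell, where 0.317% of 9765 genes rose and 0.0102% fell. Calls with Cxcr2 over all genes were 32 over all tumours and 8 without tumor_31. Whether each list entry stayed called with single tumours left out was not examined. At these shares a count of 0 in a list is near that over all genes, and no result is read from it. Among the other chemoattractant receptors, 1 of 7 rose, Ccr1 (0.93 ± 0.16 log2 units per unit of Cxcr2, SE, limma adjusted p = 0.0141), a receptor for inflammatory CC chemokines, and the leukotriene B4 receptor gene Ltb4r1 had r = 0.69 with an adjusted p of 0.176. Among ligands, 1 of 9 rose, Anxa1 (0.46 ± 0.09, limma adjusted p = 0.0273), whose protein acts on Fpr2. The median r of the 9 ligands was 0.47, and the lowest were the neutrophil chemokine genes Cxcl1 (r = 0.09) and Ppbp (r = -0.15). The list of partners of the lectin and Trem receptors also held related receptors. None of its 13 tested genes was called, with a median r of 0.31. The highest was the related receptor gene Clec4a2 (r = 0.71, limma adjusted p = 0.131), and the lowest the adaptor gene Card9 (r = -0.02). In the interleukin 1 pathway, 1 of 9 rose, Il1rn (0.41 ± 0.08, limma adjusted p = 0.0345), and the median r was 0.15. Il1rn was highest in tumor_31 (8.86) and tumor_9500 (8.84), the tumours highest in Cxcr2, and next in tumor_9509 (8.14). The lowest r of the 9 were those of the pyroptosis genes Gsdmd (-0.19) and Casp4 (-0.25).

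Of the neutrophil granule and maturation genes, 4 of 14 rose with Cxcr2: the collagenase gene Mmp8 (1.30 ± 0.17, limma adjusted p = 0.00556), the integrin gene Itgam (0.57 ± 0.10, limma adjusted p = 0.0236), Ltf (0.93 ± 0.19, limma adjusted p = 0.0450) and Mmp9 (0.84 ± 0.17, limma adjusted p = 0.0465). The median r of that list was 0.65. The relations of Cxcr2 with Ltf and Mmp9 are those already given above in the other order, so they add no separate result. In that order Cxcr2 was called in 5 of 15 fits that left out 1 tumour, with Ltf and with Mmp9 alike. The primary granule list had a median r of -0.20 and 0 of 7 called, with Ctsg (cathepsin G) at r = -0.43 and Ms4a3 at r = -0.55. Among immediate early genes 1 of 10 rose, Btg2 (0.54 ± 0.10, limma adjusted p = 0.0236), and Zfp36 had r = 0.75 with an adjusted p of 0.0817. The median r of the immediate early list was 0.47, and its summed level, between 11.15 in tumor_9492 and 12.67 in tumor_9500, had r = 0.61 with Cxcr2. The part of these genes in the relations with Cxcr2 was not tested. None of the 38 tested entries for monocytes, red pulp macrophages, eosinophils, basophils and mast cells, B cells, T and NK cells or erythroid cells was called in either direction. That count is near the share over all genes and is not read as a result about those cells. The summed level of the 9 monocyte markers was between 10.45 and 11.50 with r = 0.08 to Cxcr2, that of the 14 granule and maturation genes between 14.55 and 15.66 with r = 0.77. The sum for the 7 T and NK cell markers had r = 0.53 and that for the 5 B cell markers r = 0.42, and the part of those cells in the results was not tested.

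**Figure D5:**
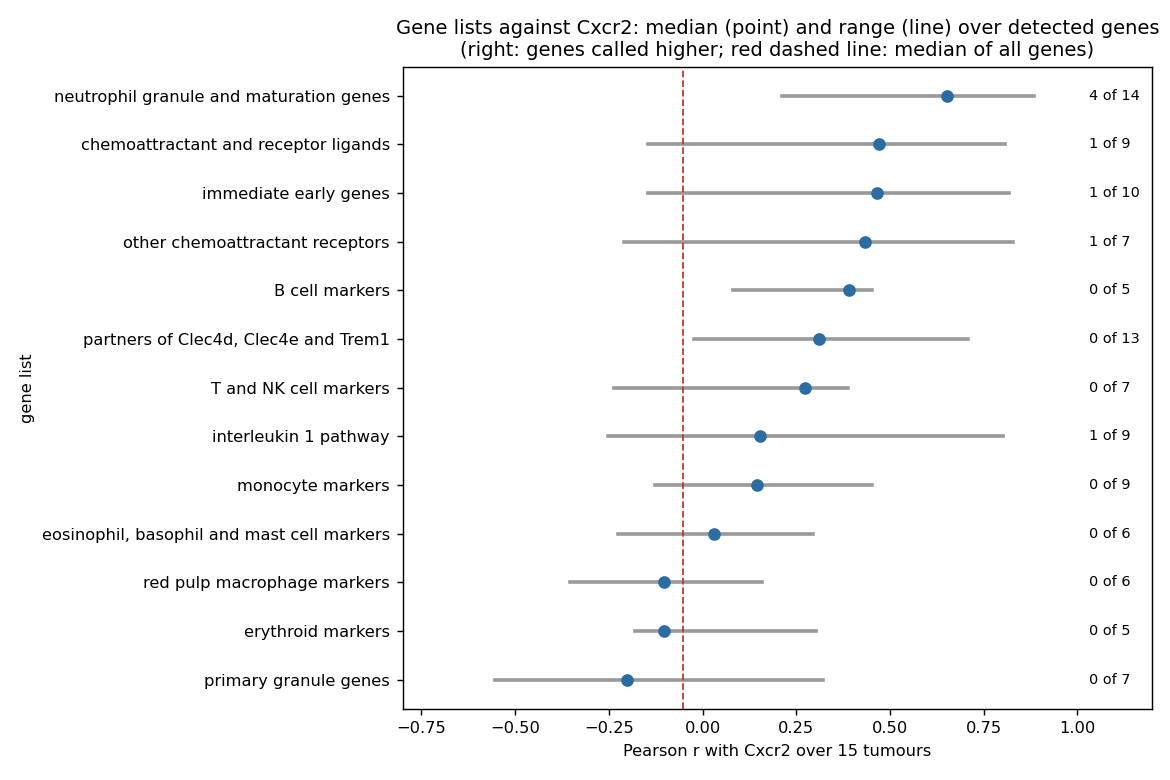
Pearson r with Cxcr2 over 15 tumours (horizontal axis) for 13 gene lists (vertical axis). Points are the median and lines the range over detected genes, the red dashed line is the median of all genes at -0.05, and the numbers on the right give genes called higher of genes tested. The granule and maturation list is at the top with 4 of 14 called.

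For each of the 9 genes the most similar expression patterns were sought among 9445 detected genes with at least 3 probesets, by Pearson's r over 15 tumours. The closest to Cxcr2 was Mmp8 (r = 0.88), which was also the closest to Retnlg (r = 0.92). Lilra6, a leukocyte immunoglobulin-like receptor gene, was among the closest 3 to Cxcr2 (0.88), Fpr1 (0.90) and Fpr2 (0.92), and without tumor_9509 and tumor_9514 these values were 0.91, 0.84 and 0.88. Fpr1 was closest to AA467197 (0.91) and Pglyrp1 (0.90), a peptidoglycan recognition protein gene. Fpr2 was followed by S100a6 (0.89) and Junb (0.87), and Retnlg by Slfn4 (0.91) and Plbd1 (0.88). Plbd1 also stood close to Trem1 (0.88), after Cd9 (0.89) and Ndel1 (0.88).

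The lectin genes shared none of their 3 closest genes. The same was so for called pairs such as Clec4d with Il1b and Cxcr2 with Clec4d, so no difference is read from it. Clec4d was closest to the endosomal receptor gene Tlr13 (r = 0.87), the metalloprotease gene Adam8 (0.84) and Ccr1 (0.83). Clec4e was closest to the kinase gene Plk3 (0.85), to Plek (0.81), which encodes pleckstrin, and to Ivns1abp (0.80). For Il1b the closest were Gcnt2 (0.90), Slfn1 (0.85) and Uba7 (0.84), and without tumor_9500 and tumor_31 these values were 0.68, 0.48 and 0.10. Ccrl2 had no gene above 0.79, its closest being Tcf19. A530064D06Rik, the gene beside Trem1, was the third closest to Cxcr2 (0.87) and was below the detection limit in 8 tumours. These are the highest of many correlations and are given as a description without a test.

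The tumour numbers of the labels have either 4 digits (10 tumours) or 2 digits (5 tumours), and what the numbering stands for is not stated. Cxcr2 averaged 9.58 ± 1.10 in tumours with 4 digits and 10.22 ± 0.83 in tumours with 2 digits (SD, n = 10 and 5). Clec4e averaged 8.66 ± 0.91 and Il1b 6.90 ± 1.25 in tumours with 4 digits, against 9.14 ± 0.76 and 7.38 ± 0.93 in tumours with 2 digits. The 4-digit minus 2-digit difference was between -0.64 for Cxcr2 and 0.06 for Clec4d among the 8 detected genes. Each was smaller than the SD within the 10 tumours with 4 digits. None of the 8 was called (limma adjusted p = 0.9997 for each), and 0.0% of 9766 genes were called in either direction. At an unadjusted p under 0.05, 58 of all genes were higher and 168 lower, with 0 of the 8 genes in either direction.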

How the data were processed

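RNA of 15 APL spleen tumours was measured on Affymetrix Mouse Exon 1.0 ST arrays, 1 array per tumour. The deposited values are linear intensities per probeset, made by the authors with RMA on build mm9, per the submitters' processing notes, with no version given. Every value column was used (0 left out). They were put on a log2 scale for all steps. Among 229581 probesets, 208397 had 1 symbol in the platform annotation and were used, 3965 had several and 17219 none; 2124 of 16299 symbols were updated through RefSeq and 43 were unmatched. Each gene takes the median of its probesets, and Il8rb is printed as Cxcr2. Arrays give no counts, so their number limits the precision.

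Relations across tumours were fitted for all detected genes with limma 3.58.1 (lmFit and eBayes, R 4.3.3) on the level of Cxcr2, Ltf, Mmp9, Csf1r, Mpo, Fos, Mki67 and each of the 9 genes, with Benjamini-Hochberg adjustment, and for numbers with 4 against 2 digits. Permutation tests were two-sided with 100000 resamples in Python 3.11.15 and scipy 1.17.1. The fit was tested on simulated data. Named were the 9 genes, per gene the 3 detected genes with the highest r, per list the 2 with the highest and the 2 with the lowest r with Cxcr2 (not all are printed), the genes fitted on, and family neighbours. Genes called with Cxcr2 in a list were named as well. Members, lists and rules were chosen with earlier results of these data known. Alternatives were the mean over probesets, centring or quantile normalization of the arrays, probesets above the 25th percentile, no filter or the 60th percentile as filter, ranks of the fitted gene, single tumours left out, tumours with 4 digits alone, and leaving out tumor_9509 and tumor_9514. The slope difference of Clec4d and Clec4e and the values without tumor_9500 and tumor_31 were added after seeing the data.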

Additional observations from a re-analysis of the deposited data

How the results depend on the processing

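The number of tumours limits these results: the mean r of the 36 pairs was 0.45 to 0.52 when single tumours were left out, but counts of calls changed. Leaving out single tumours gave 3 to 10 called pairs, 1 to 6 genes of the group called with Cxcr2, 0 to 5 with Ltf, 1 to 5 with Mmp9 and 0 to 1 with Mpo (1 without tumor_9504). Over all genes it gave 8 to 39 calls with Cxcr2, 7 to 35 with Ltf, 5 to 45 with Mmp9, 0 to 8 with Csf1r, 0 to 2163 with Mpo and 0 to 1 with Fos, against 32, 35, 40, 0, 1161 and 1 over all tumours. The lowest counts came without tumor_31 for Cxcr2 and Mmp9 and without tumor_9508 for Ltf. Within the 10 tumours with a 4-digit number, where fewer tumours were fitted, 1 pair was called, with 0 genes of the group for Cxcr2, 1 for Ltf and 0 for Mmp9, and over all genes 2 for Cxcr2, 8 for Ltf, 4 for Mmp9, 749 for Mpo and 0 for Fos. Calls with Cxcr2 over all genes were 20 on probesets above the 25th percentile, 49 after quantile normalization and 14 on ranks. With Ltf they were 23 with no filter and 53 without tumor_9509 and tumor_9514, and with Mmp9 74 on the mean over probesets. With no filter, 2 genes of the group were called with Mmp9. Csf1r calls were 4 on probesets above the 25th percentile and 1 with the 60th percentile filter. Mpo calls were 2619 on the mean over probesets, 2 on centred arrays, 524 after quantile normalization, 733 with no filter, 2 without tumor_9509 and tumor_9514 and 0 on ranks. Fos calls were 0 on the mean over probesets, on probesets above the 25th percentile, on centred arrays and after quantile normalization, and 2 on ranks. Apart from fewer tumours or genes tested, the cause of these changes was not tested. Of these counts and the mean r, the 345 remaining values stayed within 1.5 times the count or 1 SD. Single correlations did turn sign: 6 of the 8 pairs with Ccrl2 did under at least 1 of 7 settings (Clec4d with Ccrl2 0.22 on the mean over probesets in place of -0.28), and 0 of the other 28 pairs did. Without tumor_9509 and tumor_9514, 6 of 8 turned with Mpo and 2 of 8 with Csf1r, and with Fos 8 of 8 without tumor_9508 and tumor_9492. No paired analysis was possible because all tumours form 1 group.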
